A study of Mus musculus with 24 samples.

Results

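Dgka, Tmc7, Syt12 and Ncbp1 are 4 genes of 23177 listed in the Zbtb16 table and of 21688 listed in the Sox3 table. They were chosen by their measured values, because their increase in Zbtb16 null libraries was larger in the THY1+ than in the KIT+ fraction. All 4 passed the filter on low values in both tables, which left 22374 and 21212 genes to test. RNA was sequenced from spermatogonia of testes of C57BL/6J mice at postnatal day 7 (P7), sorted with magnetic beads into undifferentiated cells (uSPG, THY1+) and differentiating cells (dSPG, KIT+). Zbtb16 null mice were homozygous for the luxoid allele (Zbtb16 lu/lu), and the libraries set against them were labelled wild type (WT). Sox3 conditional knockout (cKO) mice carried a floxed Sox3 allele deleted by Ddx4-Cre, a Cre active in germ cells, and were compared with WT libraries of their own. Each of the 8 groups of genotype and fraction held 3 libraries, 24 in all, and each library came from the pooled testes of 3 mice. The study's methods describe the controls of null mice as WT and heterozygous littermates, and whether the Cre was present in the Sox3 WT mice was not given in the sources used here. In the Sox3 table the sorting markers of the WT libraries go against their fraction labels (Thy1 0.213 to 0.254 FPKM in libraries labelled THY1+ and 3.59 to 4.06 FPKM in those labelled KIT+), so these are called WT labelled THY1+ and WT labelled KIT+.

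The 4 genes belong to separate pathways. Dgka encodes diacylglycerol kinase alpha, which converts the membrane messenger diacylglycerol (DAG) to phosphatidic acid and so lowers the signal that DAG gives to protein kinase C and to Ras activators. Tmc7 is a member of the transmembrane channel-like family, whose best known members serve mechanotransduction in hair cells of the ear. Syt12 is a synaptotagmin, one of a family of membrane proteins of vesicle traffic, many of which bind calcium. Ncbp1 encodes the large subunit of the nuclear cap-binding complex, which joins the small subunit Ncbp2 on the 5′ cap of new transcripts and links the cap to splicing, export and turnover. In the testis at this age uSPG hold the stem cells of the germ line, ZBTB16 is a transcription factor of uSPG, and KIT appears as the cells begin to differentiate.

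In the GENCODE vM21 annotation (GRCm38, the mm10 build of the files), all 4 are protein-coding genes. Dgka (ENSMUSG00000025357) lies at chr10:128720134-128744855 on the minus strand, and Tmc7 (ENSMUSG00000042246) at chr7:118535841-118584736 on the minus strand. Syt12 (ENSMUSG00000049303) lies at chr19:4445908-4477447 on the minus strand, and Ncbp1 (ENSMUSG00000028330) at chr4:46138613-46172403 on the plus strand. Promoters are shown as a description only, since the genes were chosen for moving alike in the Zbtb16 table. Of the 4, 3 have an entry in the RefSeq promoter table (build GRCm38.p6), which gives 250 bases before to 50 after a start site. Syt12 has none. The windows were searched on both strands for TGACGTCA (the cAMP response element, CRE), CACGTG (the E-box of helix-loop-helix factors), CCGGAAGT (the site of ETS factors), GGGCGG (the GC box of SP factors), CCAAT (the box bound by NF-Y), TATAAA (the box bound by TBP) and TGANTCA (AP-1), and capitals mark each match. Of the 4 start sites listed for Dgka, the one shown lies 1 base from the start of a transcript with a consensus coding sequence. Each is given 5′ to 3′ on the strand of its gene, Dgka at chr10:128744027-128744326, Tmc7 at chr7:118584637-118584936 and Ncbp1 at chr4:46138261-46138560.
Dgka: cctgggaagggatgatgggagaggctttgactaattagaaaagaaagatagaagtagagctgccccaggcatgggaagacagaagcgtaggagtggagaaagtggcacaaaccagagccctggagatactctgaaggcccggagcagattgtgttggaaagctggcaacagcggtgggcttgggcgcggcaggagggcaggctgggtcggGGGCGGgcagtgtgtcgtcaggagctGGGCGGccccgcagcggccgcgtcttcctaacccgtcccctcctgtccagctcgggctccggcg
Tmc7: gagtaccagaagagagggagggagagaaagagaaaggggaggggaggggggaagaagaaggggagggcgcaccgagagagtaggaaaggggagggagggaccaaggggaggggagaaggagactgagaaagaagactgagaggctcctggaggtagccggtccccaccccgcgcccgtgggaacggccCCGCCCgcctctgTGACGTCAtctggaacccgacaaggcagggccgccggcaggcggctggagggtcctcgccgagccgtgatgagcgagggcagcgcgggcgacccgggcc
Ncbp1: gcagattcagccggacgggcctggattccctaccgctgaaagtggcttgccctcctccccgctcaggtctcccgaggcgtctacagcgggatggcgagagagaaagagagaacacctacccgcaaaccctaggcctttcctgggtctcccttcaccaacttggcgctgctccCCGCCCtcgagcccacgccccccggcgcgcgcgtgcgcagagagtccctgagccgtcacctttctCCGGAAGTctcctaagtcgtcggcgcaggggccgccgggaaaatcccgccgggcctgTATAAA

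The motif matches differed between the windows. The Tmc7 window held a full CRE, which 1.79% of the 32851 promoter windows of the same length hold. An ETS match stood in the Ncbp1 window, against 3.89% of all windows. GC boxes stood in all 3 (2 in Dgka, 1 in Tmc7 and 1 in Ncbp1), and 35.7% of all windows hold at least 1. The Ncbp1 window ended in a match to the TBP box, which lies after the start site of the window, against 13.6% of all windows. That start site lies 102 bases before the nearest start of a transcript with a consensus coding sequence, and the match lies before the latter. None of the 3 windows shown held the letters of the E-box, of AP-1 or of the NF-Y box. These stand in 7.15%, 7.81% and 37.4% of all windows. The GC content was 62.3% in Dgka, 68.3% in Tmc7 and 65.7% in Ncbp1, against a median of 52.7% over all windows. The windows held 17, 22 and 28 CpG dinucleotides in the same order, an observed over expected ratio of 0.619, 0.698 and 0.882 against a median of 0.384. Of the Dgka windows not shown, that at chr10:128737563-128737862 held 1 E-box, 1 TBP box and 2 GC boxes. That at chr10:128743829-128744128 held 3 GC boxes. The window at chr10:128745035-128745334 held none of the motifs, at a GC content of 41.3%. A match is a description of letters and not of binding.

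Levels are in FPKM as the authors deposited them, that is, read counts divided by transcript length and by the mapped reads of the library. Dgka measured 10.04, 9.86 and 9.28 FPKM in the 3 WT THY1+ libraries and 32.6, 31.5 and 33.0 FPKM in the 3 null THY1+ libraries. In KIT+ libraries it measured 8.74, 8.15 and 7.69 FPKM in WT and 11.8, 11.1 and 11.7 FPKM in null. Null libraries lay above WT libraries in both fractions with no overlap, and the null THY1+ libraries stood apart from all others. The group means went from 9.73 ± 0.396 to 32.4 ± 0.790 FPKM (SD, n = 3) in THY1+, 3.33 times higher, and from 8.19 ± 0.527 to 11.6 ± 0.360 FPKM in KIT+, 1.41 times higher.

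Tmc7 measured 8.55, 8.79 and 8.36 FPKM in WT THY1+ libraries and 17.6, 17.1 and 17.5 FPKM in null THY1+ libraries. In KIT+ libraries the levels were 8.41, 7.58 and 8.46 FPKM in WT and 8.67, 7.69 and 8.18 FPKM in null. The KIT+ groups overlapped throughout, whereas the null THY1+ libraries were all above every other library. Mean levels were 8.57 ± 0.219 and 17.4 ± 0.253 FPKM (SD, n = 3) in WT and null THY1+, a ratio of 2.03, and 8.15 ± 0.498 and 8.18 ± 0.489 FPKM in WT and null KIT+, a ratio of 1.003.

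Syt12 was the lowest of the 4 in WT and had the largest ratio. Its levels were 0.498, 0.571 and 0.547 FPKM in WT THY1+ and 4.18, 5.13 and 3.96 FPKM in null THY1+. WT KIT+ libraries held 0.557, 0.513 and 0.532 FPKM and null KIT+ libraries 1.11, 1.46 and 1.18 FPKM. Null libraries were above WT libraries in both fractions with no overlap, and null KIT+ lay between WT and null THY1+. The mean was 8.22 times higher in null than in WT in THY1+ (0.539 ± 0.0374 and 4.43 ± 0.618 FPKM, SD, n = 3) and 2.34 times higher in KIT+ (0.534 ± 0.0222 and 1.25 ± 0.186 FPKM). At the estimated depths below, these values rest on about 83 to 784 reads a library, against 1085 or more for each of the other genes.

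Ncbp1 was the most abundant. It measured 51.3, 50.9 and 58.4 FPKM in WT THY1+ libraries and 93.8, 92.9 and 101.3 FPKM in null THY1+ libraries. The KIT+ libraries held 46.7, 47.0 and 50.8 FPKM in WT and 44.4, 40.8 and 48.2 FPKM in null. Null THY1+ libraries were the highest with no overlap, and the KIT+ groups overlapped with the null mean on the lower side. The mean was 1.79 times higher in null than in WT in THY1+ (53.5 ± 4.21 and 96.0 ± 4.65 FPKM, SD, n = 3) and 0.924 times the WT mean in KIT+ (48.1 ± 2.27 and 44.5 ± 3.73 FPKM).

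**Figure D1:**
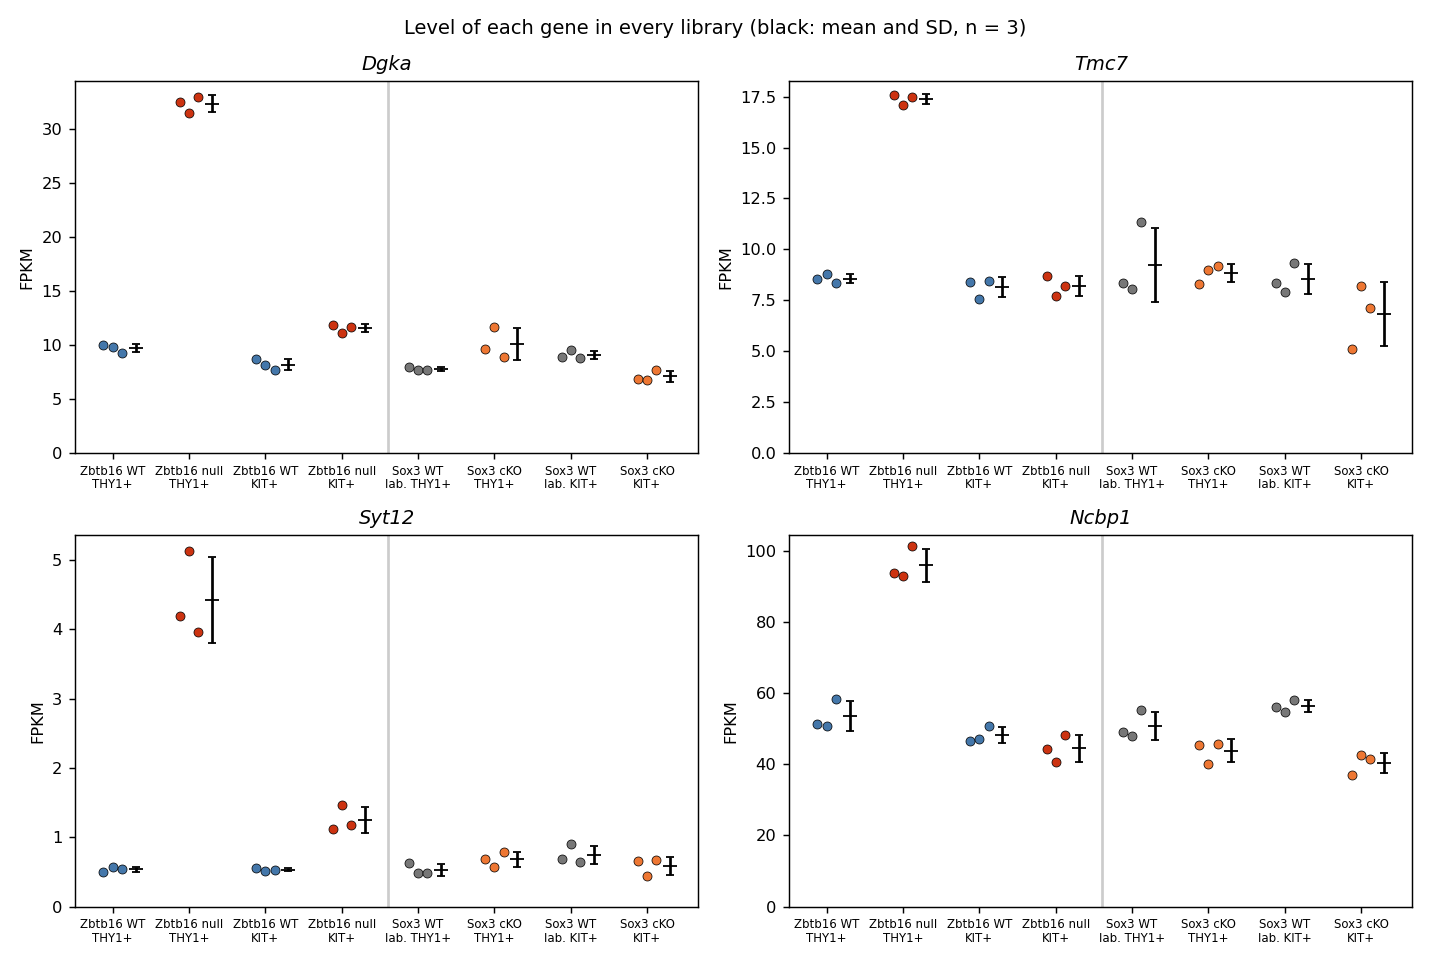
FPKM of Dgka, Tmc7, Syt12 and Ncbp1 on linear axes from 0 in each of the 24 libraries, with WT (blue, grey), null (red) and cKO (orange) groups side by side; points are libraries, and the black mark is the group mean with its SD (n = 3). In each panel the 3 null THY1+ libraries lie above all the others, for Dgka at 31.5 to 33.0 FPKM, and the Zbtb16 and Sox3 tables, divided by the grey line, were normalized separately.

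Paired by replicate number, the ratio of null to WT spread most, in proportion to its size, for Syt12 in KIT+. In THY1+ it was 3.19 to 3.56 for Dgka, 1.95 to 2.10 for Tmc7, 7.24 to 8.98 for Syt12 and 1.74 to 1.83 for Ncbp1. In KIT+ it was 1.35 to 1.52 for Dgka, 0.966 to 1.03 for Tmc7, 1.998 to 2.85 for Syt12 and 0.867 to 0.952 for Ncbp1. For every gene the lowest THY1+ ratio was above the highest KIT+ ratio, which is what the choice of these genes used.

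The fractions differed little in WT and widely in null. The WT THY1+ mean was 1.19 times the WT KIT+ mean for Dgka, 1.05 times for Tmc7, 1.01 times for Syt12 and 1.11 times for Ncbp1. The groups did not overlap for Dgka and for Ncbp1, whose lowest THY1+ library (50.9 FPKM) and highest KIT+ library (50.8 FPKM) nearly met, and they overlapped for Tmc7 and Syt12. In null mice the THY1+ mean was 2.80 times the KIT+ mean for Dgka, 2.13 times for Tmc7, 3.54 times for Syt12 and 2.16 times for Ncbp1, with no overlap for any of the 4. These libraries chose the genes, so the values are given with no test. The share of all genes without overlap was not counted, here or for other groups. Separation is therefore not shown to be particular to these 4.

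Among all 8 groups, Zbtb16 null THY1+ had the highest level of every one of the 4 genes and did not overlap with the group next in order. The other 7 groups had means of 7.10 to 11.6 FPKM for Dgka, 6.82 to 9.23 FPKM for Tmc7, 0.527 to 1.25 FPKM for Syt12 and 40.4 to 56.3 FPKM for Ncbp1. For Tmc7 and Ncbp1 each of these 7 groups overlapped with its neighbour in the order. For Dgka null KIT+ came second (11.6 ± 0.360 FPKM) and overlapped with Sox3 cKO THY1+ (10.1 ± 1.46 FPKM), and the single gap lower down lay between Sox3 WT labelled KIT+ (9.07 ± 0.374 FPKM) and Zbtb16 WT KIT+ (8.19 ± 0.527 FPKM). For Syt12 null KIT+ came second and stood apart from the 6 groups beneath it, which overlapped with one another in order from 0.742 ± 0.135 to 0.527 ± 0.0829 FPKM. Order across the tables carries the limit that each was scaled by itself.

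Log2(FPKM + 0.1) was modelled with limma, 12 libraries at a time. A gene was called when its p-value, adjusted by the Benjamini-Hochberg method over all genes tested, was at most 0.05 and its change at least 1.5-fold. In null minus WT THY1+ the log2 differences were 1.72 ± 0.08 for Dgka, 1.01 ± 0.08 for Tmc7, 2.82 ± 0.16 for Syt12 and 0.84 ± 0.09 for Ncbp1 (± SE). All 4 were called higher there, where 3.98% of genes were called and 2.71% were called higher. In null minus WT KIT+ the log2 differences were 0.49 ± 0.08 for Dgka, 0.0049 ± 0.083 for Tmc7, 1.08 ± 0.16 for Syt12 and -0.12 ± 0.09 for Ncbp1, and the sign of that of Ncbp1 turned when libraries were scaled to germ cell markers. Syt12 alone was called, where 0.259% of genes were called and 0.192% were called higher. The interaction, in which the THY1+ difference is subtracted from the KIT+ difference, was -1.23 ± 0.11 for Dgka, -1.01 ± 0.12 for Tmc7, -1.73 ± 0.22 for Syt12 and -0.96 ± 0.13 for Ncbp1. All 4 were called in the interaction, where 0.0313% of genes were. These are the contrasts the choice of genes used, so nothing is read from the counts and no p is given.

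Whether a gene was called depended on the setting in the KIT+ fraction and in the interaction. With a pseudocount of 1, or with the 6 KIT+ libraries fitted alone, none of the 4 was called in KIT+. With median-ratio scaling of the libraries 2 of the 4 were called in the interaction, and without any 1 library but null KIT+ replicate 1 between 1 and 2 were. With a replicate block the 4 genes kept the counts of 4, 1 and 4 calls in THY1+, in KIT+ and in the interaction, while calls over all genes went from 890 to 1980 in THY1+, from 58 to 513 in KIT+ and from 7 to 2756 in the interaction.

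The 4 genes were set beside all genes called higher in null THY1+. Those genes were chosen by their THY1+ difference, which by itself tends to make the KIT+ difference the smaller, so the counts are a description. Of the 607 such genes, 593 had a smaller log2 difference in KIT+ than in THY1+, 499 were higher in null KIT+ by any amount and 39 were also called higher there. Their median log2 difference was 0.98 in THY1+ and 0.29 in KIT+, with a median interaction of -0.70 and quartiles of -0.92 and -0.48. By size of the negative interaction Syt12 was 5th of the 607, Dgka 52nd, Tmc7 110th and Ncbp1 137th, so 4 genes with a larger interaction than Syt12 were not among the 4 described. By size of the THY1+ difference they were 5th, 54th, 278th and 392nd in the same order. The 7 genes called in the interaction were these 4 and, named after their values were seen, Ccnb1ip1 (-1.31), Gm7221 (-0.89) and, in the other direction, Gm13168 (2.62). Ccnb1ip1, a gene of meiotic crossing over, differed between null and WT by 0.76 in THY1+ and -0.55 in KIT+ on the log2 scale.

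**Figure D2:**
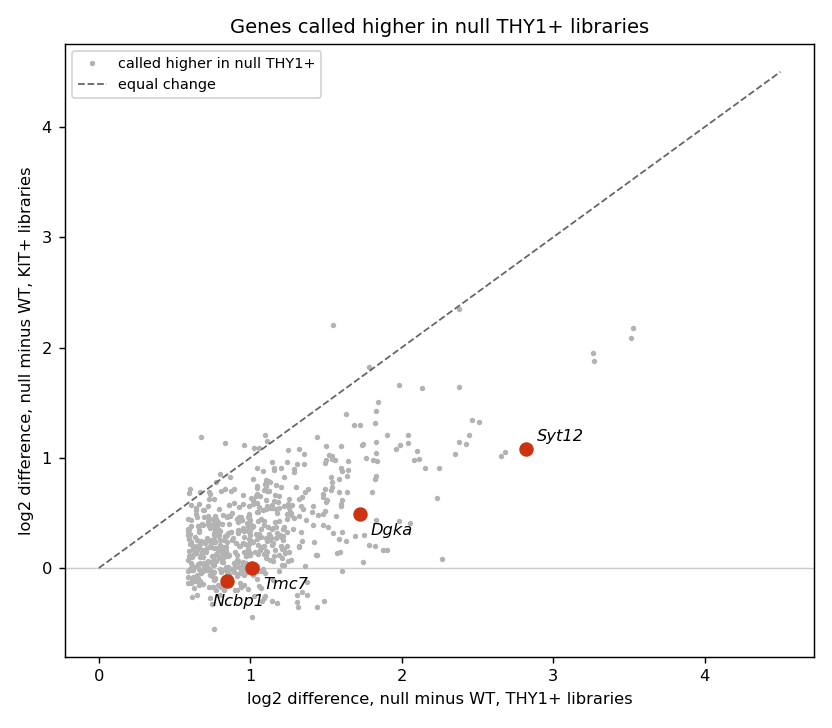
Log2 difference between null and WT in THY1+ libraries (horizontal) and KIT+ libraries (vertical) for the 607 genes called higher in null THY1+ (grey), with Dgka, Tmc7, Syt12 and Ncbp1 in red and the line of equal change dashed. All but 14 of the genes, which were chosen by their THY1+ difference, lie under the line, and Tmc7 (1.01, 0.0049) and Ncbp1 (0.84, -0.12) lie near 0 on the KIT+ axis.

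Summed markers common to germ cells, and markers of somatic cells, differed between the groups too. The 8 germ cell markers (Ddx4, Dazl, Mael, Tex101, Dnd1, Tdrd9, Piwil2 and Dppa4) summed to 1038 to 1212 FPKM in WT THY1+ and 1229 to 1534 FPKM in null THY1+, and to 992 to 1234 FPKM in WT KIT+ and 763 to 1110 FPKM in null KIT+. Their median log2 difference between null and WT was 0.34 in THY1+ and -0.16 in KIT+, all 8 had a negative interaction, and 1 of them, Dppa4, was called higher in null THY1+ (1.14, adjusted p = 0.00221). The 19 markers of undifferentiated spermatogonia summed to 318 to 374 FPKM in WT THY1+ and 309.6 to 396 FPKM in null THY1+. Their median log2 difference was -0.12 in THY1+ and -0.05 in KIT+ with a median interaction of 0.10, 13 of the 19 had a positive interaction, and 3 fell in null THY1+, Eomes (-1.15), Neurog3 (-1.22) and T (-1.25). The 8 markers of differentiating spermatogonia had medians of -0.03 in THY1+ and -0.30 in KIT+, and none was called. Median interactions of the somatic lists were positive, at 1.01 for 10 Sertoli cell markers, 1.33 for 8 Leydig cell markers, 1.35 for 12 peritubular and stromal markers, 0.41 for 8 endothelial markers and 0.81 for 13 macrophage markers. None of these somatic markers was called in the interaction. Within a fraction only the macrophage marker Cd68 was called, lower in null THY1+ (-0.79, adjusted p = 0.0208). In bulk samples fewer cells of a type and less RNA per cell cannot be told apart. When each library was scaled to its summed germ cell markers, an alternative chosen after seeing the data, the log2 differences in THY1+ were 1.38 for Dgka, 0.67 for Tmc7, 2.49 for Syt12 and 0.50 for Ncbp1, and in KIT+ they were 0.75, 0.26, 1.33 and 0.14. In that scaling 3 of the 4 were called in THY1+, Ncbp1 being the exception, and 0 in KIT+. The interactions were then -0.63, -0.41, -1.16 and -0.36, with none of the 4 called, nor any other gene. That scaling moved the median of all genes by -0.32 in THY1+, 0.24 in KIT+ and 0.57 in the interaction.

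Dgka is also expressed in T cells, which carry THY1. The 9 T cell markers summed to 16.1 to 16.7 FPKM in WT THY1+ and 10.9 to 12.3 FPKM in null THY1+, and to 2.01 to 2.88 FPKM in WT KIT+ and 1.80 to 2.51 FPKM in null KIT+. In null minus WT THY1+, 7 of the 9 were lower by any amount and 1, Il7r, was called lower (-1.44, adjusted p = 0.00189), while Trbc1 was at 0 in all null KIT+ libraries. The part of T cell RNA in the Dgka levels was not tested.

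The Sox3 table had no part in the choice of the 4 genes, and each difference there was tested. Dgka measured 7.94, 7.64 and 7.72 FPKM in WT labelled THY1+ libraries, 8.89, 9.50 and 8.82 FPKM in WT labelled KIT+, 9.66, 11.7 and 8.88 FPKM in cKO THY1+ and 6.87, 6.74 and 7.70 FPKM in cKO KIT+. Tmc7 measured 8.32, 8.05 and 11.3 FPKM, 8.34, 7.90 and 9.34 FPKM, 8.32, 8.97 and 9.17 FPKM, and 5.12, 8.20 and 7.13 FPKM in the same groups in that order. The cKO groups of Dgka did not overlap, and those of Tmc7 were separated by 8.20 and 8.32 FPKM at their nearest. Syt12 measured 0.623, 0.478 and 0.481 FPKM, 0.690, 0.895 and 0.642 FPKM, 0.692, 0.574 and 0.791 FPKM, and 0.658, 0.442 and 0.671 FPKM in that order, on about 29 to 117 reads a library. Ncbp1 measured 49.1, 48.0 and 55.4 FPKM, 56.2, 54.7 and 58.1 FPKM, 45.5, 40.2 and 45.8 FPKM, and 37.1, 42.7 and 41.4 FPKM. All 6 cKO libraries of Ncbp1 were below all 6 WT libraries, and no such split between genotypes was seen for the other 3 of the 4 genes. How many of all genes split in this way was not counted.

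Averaged over both fractions, the difference between cKO and WT does not depend on which WT group is which. None of the 4 genes was called by limma in this comparison, where 10.3% of genes were. An unadjusted p under 0.05 was seen for 8155 of the 21212 genes tested and for 1 of the 4. That gene was Ncbp1, lower in cKO by a log2 difference of -0.35 (95% interval -0.50 to -0.20, adjusted p = 0.00579), a 1.27-fold change under the 1.5-fold threshold. When libraries were scaled to the summed germ cell markers this difference became 0.07, where the median of all genes was 0.41 in place of 0.02. The median log2 difference of the 8 germ cell markers was -0.37 in the same comparison, and their part in the Ncbp1 difference was not tested. The difference was 0.0064 for Dgka (-0.17 to 0.18), -0.20 for Tmc7 (-0.47 to 0.08) and 0.02 for Syt12 (-0.33 to 0.36), with adjusted p-values of 0.275 for Tmc7 and above it for Dgka and Syt12. At the deposited scaling the interval of each of the 4 excludes a change of 1.5-fold in either direction. Scaled to germ cell markers the differences were 0.42 for Dgka (adjusted p = 0.0166), 0.21 for Tmc7, the sign of which turned, and 0.37 for Syt12, and none was called. With replicates 2 and 3 alone the Ncbp1 difference was -0.34 (adjusted p = 0.0758).

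Between fractions of cKO mice, where labels and sorting markers agree, Dgka was lower in KIT+ than in THY1+ by a log2 difference of -0.49 (95% interval -0.74 to -0.24, adjusted p = 0.00770), a 1.41-fold change. That difference was -0.17 (adjusted p = 0.493) when libraries were scaled to germ cell markers, which moved the median of all genes from -0.02 to 0.30, and -0.49 (adjusted p = 0.112) with replicates 2 and 3 alone. Tmc7 differed by -0.39 (-0.78 to -0.0054, adjusted p = 0.117), Syt12 by -0.19 (-0.69 to 0.30, adjusted p = 0.554) and Ncbp1 by -0.12 (-0.33 to 0.09, adjusted p = 0.386). None was called, where 22.7% of genes were. An unadjusted p under 0.05 was seen for 2 of the 4 and for 8687 of the 21212 genes tested. In the libraries labelled WT KIT+ minus those labelled WT THY1+ the differences were 0.22 for Dgka (-0.03 to 0.47), -0.10 for Tmc7 (-0.49 to 0.29), 0.42 for Syt12 (-0.07 to 0.91) and 0.15 for Ncbp1 (-0.06 to 0.36). None was called and none had an unadjusted p under 0.05, where 19.7% of genes were called and 7752 of 21212 had such a p. The intervals of Dgka, Tmc7 and Ncbp1 exclude, at the deposited scaling, a 1.5-fold difference between WT libraries of different labels, and that of Syt12 does not. Scaled to germ cell markers the signs of Syt12 (0.10) and Ncbp1 (0.21) between cKO fractions turned, and those between the WT groups did not.

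Taking cKO libraries against the WT libraries that their sorting markers resemble, cKO THY1+ minus WT labelled KIT+ gave 0.14 for Dgka (-0.11 to 0.39), 0.05 for Tmc7 (-0.34 to 0.44), -0.10 for Syt12 (-0.59 to 0.39) and -0.36 for Ncbp1 (-0.57 to -0.15, adjusted p = 0.236). None was called, where 0.0707% of genes were. Ncbp1 alone of the 4 had an unadjusted p under 0.05, as did 2793 of the 21212 genes tested. In cKO KIT+ minus WT labelled THY1+ the differences were -0.13 for Dgka (-0.38 to 0.12), -0.44 for Tmc7 (-0.83 to -0.05, adjusted p = 0.0897), 0.13 for Syt12 (-0.36 to 0.62) and -0.33 for Ncbp1 (-0.54 to -0.12, adjusted p = 0.0282). None was called, where 17.0% of genes were. Of the 4, 2 had an unadjusted p under 0.05, as did 8080 of the 21212 genes tested. Without cKO KIT+ replicate 2, the highest of its group for Tmc7 at 8.20 FPKM, the Tmc7 difference was -0.59 and was called. Scaled to germ cell markers, cKO KIT+ minus WT labelled THY1+ became 0.43 for Dgka, 0.12 for Tmc7, 0.62 for Syt12 and 0.24 for Ncbp1 (adjusted p = 0.116), so that the signs of Dgka, Tmc7 and Ncbp1 turned, where the median of all genes went from 0.02 to 0.55. In cKO THY1+ minus WT labelled KIT+ the same scaling gave 0.40, 0.31, 0.13 and -0.11 in that order, and the sign of Syt12 turned. None of the 4 was called in either. The Ncbp1 difference in cKO KIT+ also had an adjusted p above 0.05 with the 6 libraries alone (0.0837), with replicates 2 and 3 alone (0.210) and without WT labelled THY1+ replicate 3, cKO KIT+ replicate 1 or cKO KIT+ replicate 3 (0.0558 to 0.0986). The 2 comparisons share no library with each other, and each shares libraries with the averaged one.

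**Figure D3:**
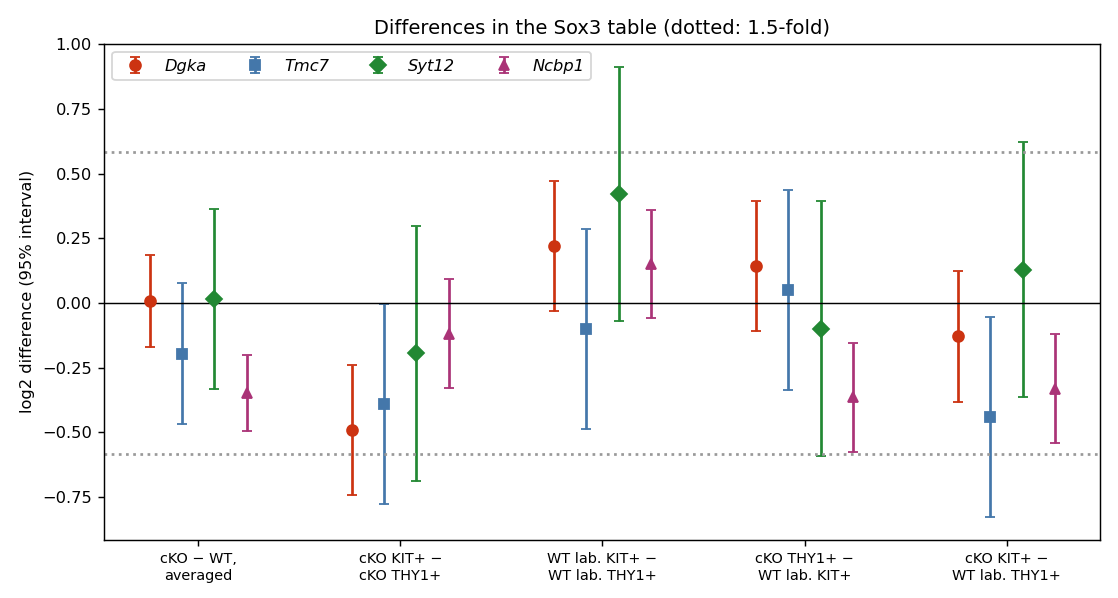
Log2 differences with 95% intervals for Dgka, Tmc7, Syt12 and Ncbp1 in 5 comparisons of the Sox3 table (n = 3 libraries a group; lab. marks WT libraries by their label), with the 1.5-fold threshold dotted. At the deposited scaling Ncbp1 lies under 0 in each cKO minus WT comparison (-0.35 averaged) and no point passes the 1.5-fold threshold; scaled to germ cell markers, which is not drawn, Ncbp1 was at 0.07 averaged and Syt12 reached 0.62 in cKO KIT+ minus WT labelled THY1+.

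Related genes were taken from lists of family members and pathway partners that leave out the 4 genes themselves. Of the 9 other diacylglycerol kinases, 1 rose in null THY1+ libraries, Dgkh, by a log2 difference of 0.69 (adjusted p = 0.0166), and its difference in KIT+ was 0.53 (adjusted p = 0.149). Dgkh measured 14.8 FPKM in WT THY1+ and 24.0 FPKM in null THY1+ on average. None of 20 genes that make DAG (phospholipases C) or receive it (protein kinases C, Ras activators) was called in either fraction, with a median log2 difference of -0.19 in THY1+ and 0.23 in KIT+. Of 7 other TMC genes 1 rose in null THY1+, Tmc5, by 1.14 (adjusted p = 0.00282), from 0.440 to 1.09 FPKM on average, and its difference in KIT+ was 0.21 (adjusted p = 0.522). Of 13 synaptotagmins tested among 16 listed, 2 fell in null THY1+, Syt6 by a log2 difference of -1.31 (adjusted p = 0.00967) and Syt9 by -0.61 (adjusted p = 0.0216), and 0 rose. Syt6 averaged 0.379 FPKM in WT THY1+ and 0.0948 FPKM in null THY1+, near the 0.1 FPKM added before the log, and Syt9 8.70 and 5.64 FPKM. Of 14 genes of cap binding and capping none was called in either fraction, and Ncbp2, the partner of Ncbp1, differed by 0.14 in THY1+ (adjusted p = 0.478) and by -0.13 in KIT+ (adjusted p = 0.574), with 42.9 FPKM in WT THY1+ and 47.4 FPKM in null THY1+. Over all lists 2 of 63 genes were called higher and 2 lower in null THY1+, against 3.98% of all genes called, and 0 of 63 in KIT+. The median log2 difference of the 63 was -0.07 in THY1+ and -0.04 in KIT+, beside -0.03 and 0.0063 over all genes tested. Scaled to germ cell markers, Syt6, Syt9 and Tmc5 were still called and Dgkh, at 0.35, was not.

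In the Sox3 table, 8 of the 63 rose and 1 fell in the average of cKO minus WT, against 10.3% of all genes called, with a median of 0.10 beside 0.02 over all genes. The phospholipases C Plcb1, Plcb2 and Plcb4 rose by 0.72, 0.87 and 0.67, the protein kinase C gene Prkce by 0.87 and the Ras activator Rasgrp3 by 0.83 on the log2 scale. Tmc1, a subunit of the hair cell channel, rose by 0.67, Syt13 by 0.89 and Syt15 by 0.74, and Syt5 fell by 0.70, all with adjusted p-values between 0.00261 and 0.0436. Ncbp2 differed by -0.58 (adjusted p = 0.00794), just under the 1.5-fold threshold, and 11 of the 14 cap genes were lower in cKO by any amount. The share of all genes lower in cKO was not counted. All 8 germ cell markers were lower too, with a median of -0.37 beside -0.18 for the 14 cap genes. Scaling to germ cell markers moved the median of all genes to 0.41, and the cap genes were not examined at that scaling. Scaled to germ cell markers, the 8 genes that rose were still called and Syt5, at -0.33, was not. Some somatic lists moved too, with 5 of 8 Leydig and 4 of 10 Sertoli cell markers called higher in cKO. So were 4 of 12 peritubular and stromal and 2 of 8 endothelial markers, and none of 13 macrophage or 9 T cell markers was called. The part of somatic cells in these differences was not tested.

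**Figure D4:**
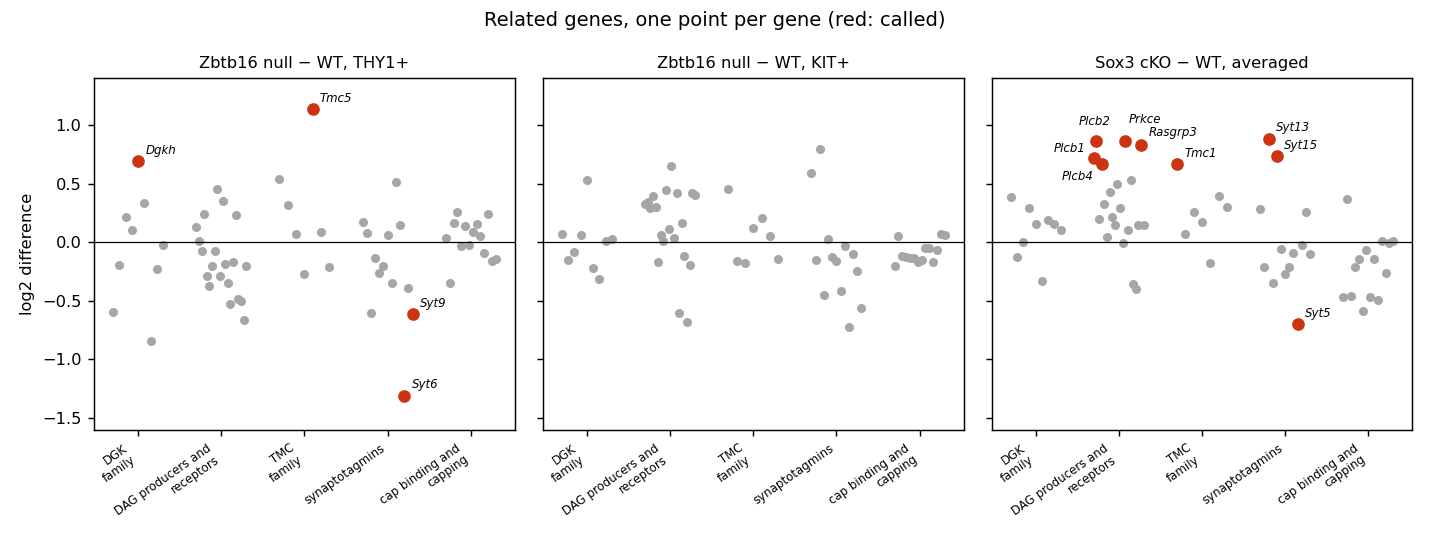
Log2 difference of each related gene (1 point a gene, 63 genes in 5 lists) between Zbtb16 null and WT in THY1+ and in KIT+ libraries and between Sox3 cKO and WT averaged over fractions, with called genes in red and named. Null THY1+ shows 4 called genes, led by Tmc5 (1.14) and the low Syt6 (-1.31, from 0.379 to 0.0948 FPKM on average), null KIT+ none, and Sox3 cKO 9.

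Neighbouring genes were looked at because 3 of the 4 genes overlap others on the opposite strand. The strand setting of the authors' counting was not given in the sources used here, so reads of overlapping exons cannot be assigned to one strand. A930001C03Rik, a noncoding transcript opposite to Syt12, shares 950 exonic bases with it, 17.2% of the exonic length of Syt12 and 35.9% of its own. Its levels were 0.728, 0.580 and 0.667 FPKM in WT THY1+ and 4.30, 5.84 and 4.28 FPKM in null THY1+, with 0.821, 0.793 and 0.708 FPKM in WT KIT+ and 1.71, 1.98 and 1.48 FPKM in null KIT+. Its log2 differences of 2.68 in THY1+ and 1.06 in KIT+ stand beside 2.82 and 1.08 for Syt12, and how the reads divide between the pair could not be told.

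Pmel, a gene of pigment granules on the strand opposite to Dgka, shares 105 exonic bases with it. They are 2.20% of the exonic length of Dgka and 4.58% of that of Pmel. Pmel measured 3.02, 3.17 and 3.22 FPKM in WT THY1+ and 5.05, 6.73 and 6.45 FPKM in null THY1+, a log2 difference of 0.92 (adjusted p = 0.00385), and differed by 0.06 in KIT+ (adjusted p = 0.842). Tmc5, which starts 12561 bases beyond Tmc7 on the other strand and overlaps none of its exons, rose in the THY1+ fraction as given above. Its levels were 0.379, 0.477 and 0.464 FPKM in WT THY1+ and 0.953, 1.15 and 1.17 FPKM in null THY1+, so that the groups did not overlap. Tstd2 and Xpa share 82 and 77 exonic bases with Ncbp1, 1.47% and 4.07% of their own exonic length. They differed by 0.45 and 0.39 in THY1+ (adjusted p = 0.0137 and 0.0459), under the 1.5-fold threshold. The other 7 nearest genes, Cdk2, Pym1, Coq7, Rhod, 2010003K11Rik, Gm23250 and Gm12444, were not called in either fraction, with log2 differences of 0.06 to 0.40 in THY1+. In the average of Sox3 cKO minus WT none of the 11 neighbours tested was called.

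**Figure D5:**
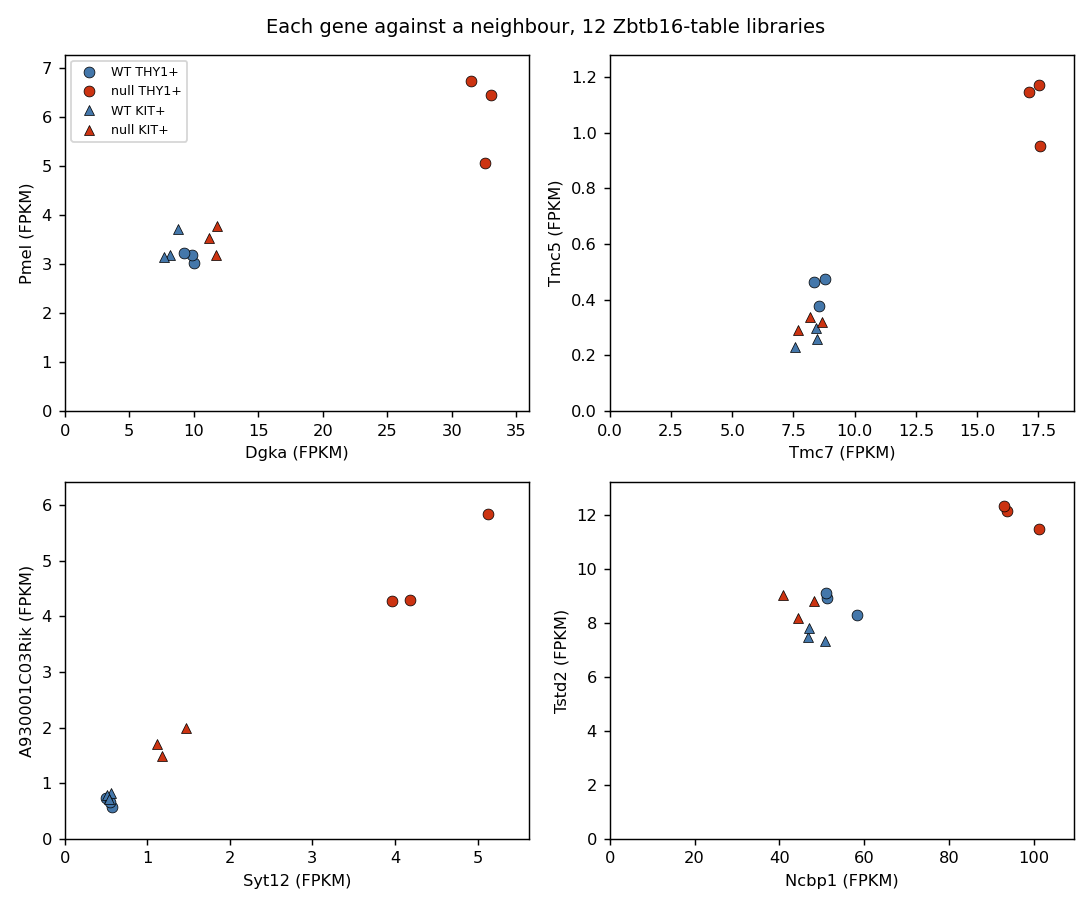
FPKM of Dgka, Tmc7, Syt12 and Ncbp1 (horizontal) against Pmel, Tmc5, A930001C03Rik and Tstd2 (vertical) in the 12 libraries of the Zbtb16 table, both axes linear from 0, circles for THY1+ and triangles for KIT+, WT in blue and null in red. The 3 null THY1+ libraries lie apart in each panel, and A930001C03Rik follows Syt12 in null KIT+ too (1.48 to 1.98 FPKM).

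The genes whose pattern was most like each of the 4 were taken by Pearson r of log2(FPKM + 0.1) over the 12 libraries of the Zbtb16 table, among 16520 genes with a mean of at least 1 FPKM. These 12 points fall into 4 groups, so r mainly reflects the group means, and it is a description. For Dgka they were Abcb1b, an efflux pump (r = 0.986), Ttc13 (0.977), the Integrator subunit Ints6 (0.975), the keratin Krt18 (0.972) and the kinase Dclk3 (0.972). For Tmc7 they were Nutm1 (0.982), Ints6 (0.978), the phosphatase Acp6 (0.978), the acetyltransferase Kat8 (0.974) and the ubiquitin ligase Herc4 (0.970). For Syt12 they were its antisense neighbour A930001C03Rik (0.989), Cutal (0.974), Whamm (0.965), Krt18 (0.964) and the retinoid receptor Rxrg (0.963). For Ncbp1 they included D11Wsu47e (0.984), the chaperone Hspa4 (0.982) and Got1l1 (0.976).

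Their likeness in form did not carry equal size. Krt18 differed between null and WT by 3.51 in THY1+ and 2.08 in KIT+, and Cutal by 3.52 and 2.18, whereas Kat8 differed by 0.31 and 0.0017 and Hspa4 by 0.29 and -0.0087 on the log2 scale. Over the 12 libraries of the Sox3 table the r of the pairs named was 0.19 to 0.81 for Dgka, -0.15 to 0.86 for Tmc7, 0.09 to 0.81 for Syt12 and 0.63 to 0.93 for Ncbp1. Among the 4 genes themselves r was 0.808 (Syt12 and Ncbp1) to 0.969 (Tmc7 and Ncbp1) in the Zbtb16 table, which chose them, and -0.24 (Tmc7 and Syt12) to 0.63 (Tmc7 and Ncbp1) in the Sox3 table.

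In the Zbtb16 table the fraction labels and sorting markers agree, with Thy1 at 3.29 to 4.67 FPKM in THY1+ and 0.156 to 0.666 FPKM in KIT+ libraries and Kit at 13.8 to 21.1 and 51.7 to 74.8 FPKM. Zbtb16 transcript measured 42.0 to 58.7 FPKM in WT THY1+ and 15.6 to 18.2 FPKM in null THY1+, and Sox3 measured 0 to 0.0820 FPKM in the 6 cKO libraries against 6.28 to 24.4 FPKM in their WT. The step that a single read makes in the FPKM of single-exon genes put the depth at about 26.0 to 35.2 M reads (M for mega) in Zbtb16 libraries, 28.3 to 31.8 M in replicate 1 of the Sox3 groups and 11.05 to 15.0 M in replicates 2 and 3, where 82.6% to 88.2% of low values came within 0.02 of a whole read. Macrophage markers summed to 442 to 1109 FPKM in Zbtb16 THY1+ libraries and Leydig cell markers to 1226 to 3143 FPKM in KIT+ libraries, so neither fraction was free of somatic RNA.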

How the data were processed

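RNA of 24 libraries was analysed, 12 in each of 2 tables, grouped by the GEO labels alone. The 4 genes and the lists of related and marker genes were chosen with earlier results of these data known. The authors made stranded libraries without ribosomal RNA, read single ends, aligned them with Novoalign to mm10, allowing several placements a read, computed the FPKM deposited here and tested with DESeq2 in USeq; the tool that computed FPKM and the strand used in counting were not given in the sources used here. Each table was normalized by itself, and no column was left unused.

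Here log2(FPKM + 0.1) was fitted in limma 3.58.1 (R 4.3.3) with 4 group means a table, eBayes with trend and robust settings, for genes with a mean of at least 0.1 FPKM. Tests were two-sided, and a call needed both a 1.5-fold change and an adjusted p no higher than 0.05. The added 0.1 understates changes of low genes. The fit was tested on simulated data in which each library varied independently. Same-numbered libraries here deviated together in many pairs, so the simulation does not cover that pairing. FPKM values are no counts, so no count test was run. Contrasts that chose the genes are given with no p. The labels do not say which libraries share mice, so p-values measure only the spread between these libraries.

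Genes named are the 4, the targeted and sorting genes, list genes that were called, Ncbp2, the nearest and overlapping neighbours and, for each of the 4, the 5 genes with the highest r, of which some for Ncbp1 are not reported here. Alternatives were pseudocounts, filters, scalings, left-out libraries and a replicate block. Same-numbered libraries deviated together from their group means in every pair of null and WT (r 0.144 to 0.595 in THY1+ and 0.461 to 0.636 in KIT+), of cKO THY1+ and cKO KIT+ (0.111 to 0.262), of null THY1+ and null KIT+ (0.369 to 0.626), of null THY1+ and WT KIT+ (0.338 to 0.593), of both WT groups of the Sox3 table (0.115 to 0.433) and of cKO THY1+ and WT labelled KIT+ (0.143 to 0.302), and not in every pair of the remaining groups (lowest -0.18). The pairing comes from these correlations and, in the Zbtb16 table, from sample numbers in the labels that share a prefix within a replicate number.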

Additional observations from a re-analysis of the deposited data

How the results depend on the processing

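Of the 647 values of the 4 genes under an alternative setting, 631 stayed called or not called or, where no test was given, moved by less than the spread between replicates. Of the 411 tested values, 13 had an adjusted p on the other side of 0.05, 4 of them with germ cell scaling, 3 with replicates 2 and 3 alone, 1 with the compared libraries alone and 5 without a library, and uncalled values could turn in sign. The counts of called genes among the 4 changed as follows. In null minus WT THY1+ the 4 calls became 3 with libraries scaled to germ cell markers. In null minus WT KIT+ the 1 call became 0 with a pseudocount of 1, with the KIT+ libraries alone and with libraries scaled to germ cell markers, and it was 0 to 1 without a library, 0 without any of WT KIT+ replicates 1, 2 and 3 or of null KIT+ replicates 2 and 3. In the interaction the 4 calls became 2 with median-ratio scaling and 0 with germ cell scaling, and they were 1 to 4 without a library. In cKO KIT+ minus WT labelled THY1+ the 0 calls became 0 to 1 without a library. With a replicate block the counts of 4 in THY1+, 1 in KIT+, 4 in the interaction and 0 in each Sox3 comparison did not change. With a pseudocount of 1 the log2 differences of Syt12 were 1.81 in THY1+, 0.55 in KIT+ and -1.26 in the interaction, lower by construction. Calls over all genes moved by over 1.5 times: in THY1+ from 890 to 565 (pseudocount 1), 468 (mean FPKM of at least 1), 494 (germ cell scaling), 1980 (replicate block) and 295 to 369 without WT THY1+ replicate 1 or 2 or null THY1+ replicate 1 or 3; in KIT+ from 58 to 25 (pseudocount 1), 2 (KIT+ libraries alone), 22 (germ cell scaling), 513 (replicate block) and 25 to 37 without any 1 library but WT or null THY1+ replicate 3 (42 and 41); in the interaction from 7 to 45 (pseudocount 1), 2 (median-ratio scaling), 0 (germ cell scaling), 2756 (replicate block) and 1 to 867 without a library, the 867 without null KIT+ replicate 1. In the Sox3 average 2188 calls became 1024 (pseudocount 1), 6415 (germ cell scaling) and 597 (replicates 2 and 3 alone). In the same setting calls went from 4809 to 2473 between cKO fractions and from 3608 to 987 in cKO KIT+ minus WT labelled THY1+, which went to 8639 with germ cell scaling and to 2327 without WT labelled THY1+ replicate 2. In cKO THY1+ minus WT labelled KIT+ the 15 calls became 0 to 29. The cause of these changes was not tested. The levels of Syt12 in WT and in Sox3 libraries, at about 29 to 117 reads, limit the precision of its differences.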
